A study of Mus musculus with 5 samples.

Results

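The tumor necrosis factor (TNF) superfamily is a set of signalling ligands and the receptors that bind them. Its members were taken as the protein-coding mouse genes named Tnfsf or Tnfrsf with a number, together with Tnf, Lta, Ltb, Ltbr, Fas, Fasl, Cd40, Cd40lg, Cd27 and Cd70. This symbol rule gave 41 genes, 17 ligands and 24 receptors, of 56941 gene identifiers in the count table. The rule itself uses no measured value, but it was set with earlier results of these data known. RNA was sequenced from the iridocorneal angle, the tissue between iris and cornea through which aqueous humor drains, of 12-month-old mice described as males and females. The 3 DBA/2J pools came from mice that carry both the Tyrp1 b and the Gpnmb R150X mutations and develop pigmentary glaucoma. The 2 Gpnmb+ pools came from the DBA/2J-Gpnmb+/SjJ strain, in which a wild-type Gpnmb allele replaces the mutant one. Tyrp1 b is therefore shared by both groups, and the controls still have the iris stromal atrophy tied to it. Each pool was described as the angles of 3 mice, but the library labels name 3 animals for each DBA/2J pool and 2 for each Gpnmb+ pool, so a pool is an average over mice.

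In this family a ligand, usually a trimer on the cell surface that can be cut loose by a protease, gathers its receptors into clusters. Receptors with a death domain recruit adaptors such as Tradd and Fadd and can lead to NF-kB activation or to caspase 8 and cell death. Most others bind TRAF adaptors and lead to NF-kB and kinase signalling, and decoy receptors bind ligand without passing the signal on. TNF acts on vascular endothelium, macrophages and the outflow tissue of the eye, while many of the remaining pairs are known for co-stimulation and survival of lymphocytes.

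Gpnmb, the gene that defines the strains, was counted 2042, 2234 and 1946 times in DBA/2J pools 1 to 3, against 129659 and 110568 in Gpnmb+ pools 1 and 2, as the labels require. Total counts on genes ran from 43900661 to 49837758 per pool. The trabecular meshwork markers Myoc, Mgp and Angptl7, taken from a list of 5, were present in every pool at 3055 counts or more. RNA of the corneal and limbal epithelium was also plentiful, with Krt5 at 93469 to 194080 counts. The Y-linked gene Ddx3y was counted 3608, 4168 and 1567 times in DBA/2J pools 1 to 3 but 0 and 4 times in Gpnmb+ pools 1 and 2, which goes against the description of both genotypes as males and females. Xist, expressed from the inactive X of females, was counted 596, 0 and 2417 times in the DBA/2J pools, against 7843 and 9152 in Gpnmb+, so that the genotype and the sex makeup of the RNA cannot be told apart for any gene below. In these bulk samples, fewer cells of a type and less RNA per cell also cannot be told apart.

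Sequences are shown for the member with a called genotype difference and for the members with a match to a kappaB motif, the DNA word bound by NF-kB, because NF-kB is the main transcriptional output of these receptors. They were read from the GRCm39 reference, which is C57BL/6J and not DBA/2J. Tnfrsf21 begins with several annotated starts, and the 186 bases before the outermost one, at chr17:43327163-43327348 on the plus strand, held no kappaB match and no TATAAA.
Tnfrsf21: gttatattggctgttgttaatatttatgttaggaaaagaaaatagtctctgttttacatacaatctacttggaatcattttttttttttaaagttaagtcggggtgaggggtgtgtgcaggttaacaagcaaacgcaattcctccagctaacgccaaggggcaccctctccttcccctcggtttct

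The kappaB consensus of 10 bases was searched on both strands in the 250 bases before the canonical transcript start of every protein-coding gene. The motif was chosen after member values and sequences had been seen. It matched in 4 of the 41 members (9.76%) and in 912 of 21667 protein-coding genes (4.21%), and TATAAA matched in 9 members (22.0%) and in 2587 of all genes (11.9%). The 30 bases around each match are given 5′ to 3′ on the strand of the gene, with the match in capitals. The match began 71 bases before the start in Cd40 (chr2:164897463-164897492, plus), 185 in Tnfrsf8 (chr4:145041883-145041912, minus), 43 in Tnfrsf9 (chr4:151012404-151012433, plus) and 147 in Tnfsf15 (chr4:63663570-63663599, minus). In Tnfrsf9 a pair of matches overlapped by all but their end base, and both lie in the first exon of another Tnfrsf9 transcript. A match is a description of letters and not evidence of binding.
Cd40: gaaggtcctgGGGAAATCCCtgctcagtga
Tnfrsf8: tcaaaacgcaGGGGAGCCCCctgcgtgcgt
Tnfrsf9: agagcagctGGGGATTTCCCaggaggccct
Tnfsf15: tcctcctccaGGGACTTTCCtgacttcctt

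Most of the family was expressed in the angle, and receptors made up most of the highest levels. Levels are compared between genes as RPKM, the reads scaled to exon length and to library size. The receptors with the highest mean RPKM over the 5 pools were Tnfrsf1a (46.8), Tnfrsf21 (38.5), Ltbr (22.1), Tnfrsf1b (14.2) and Tnfrsf12a (7.82). Only 2 ligands came near them, Tnfsf10 at a mean RPKM of 23.3 and Tnfsf12 at 9.17. Ltb (2.61) and Tnf (2.48) followed, and every other ligand had a mean RPKM under that of Tnf. The T cell ligands Cd40lg and Cd70 lay under the minimum of 10 counts in at least 1 pool that was set for testing. Cd40lg had 5, 3 and 6 counts in DBA/2J, with 6 in each Gpnmb+ pool, and Cd70 had at most 2 counts in any pool. The remaining 39 members were tested among 19713 genes.

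**Figure D1:**
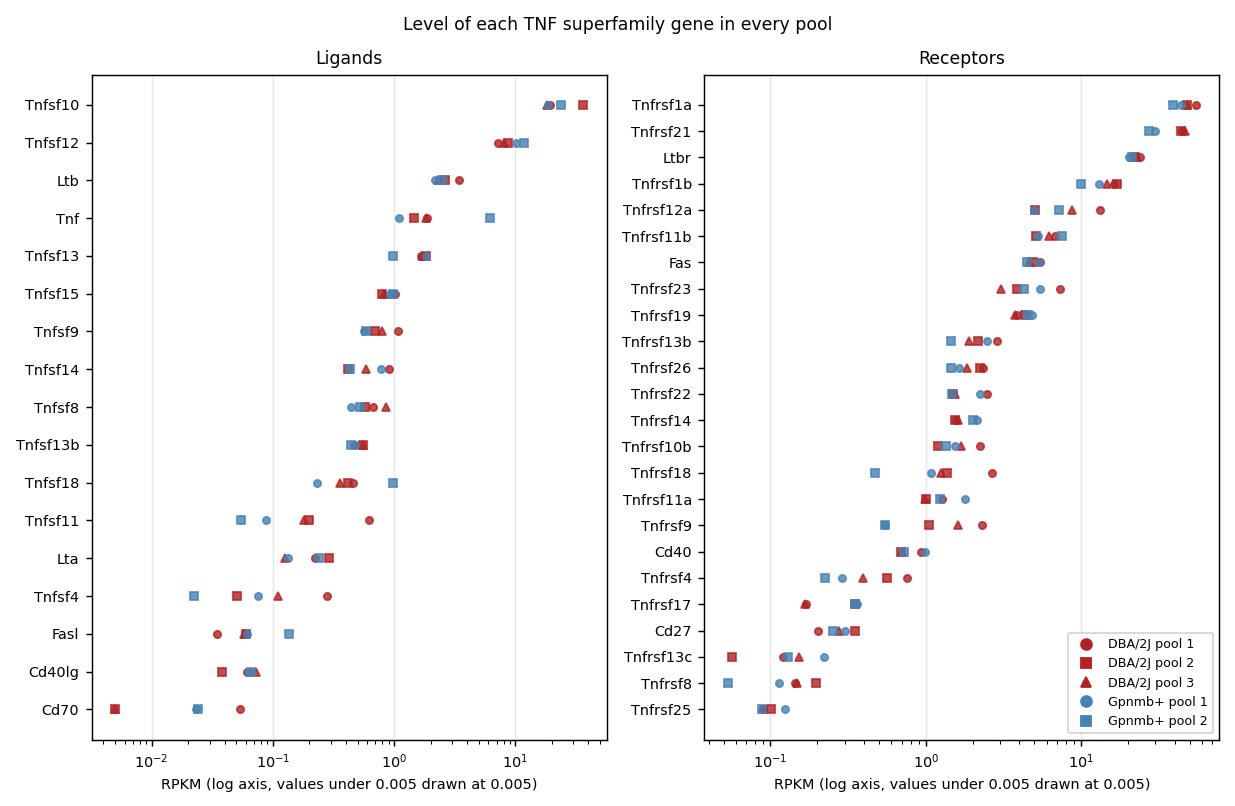
Level of each of the 41 genes in every pool, in RPKM on a log axis, with ligands on the left and receptors on the right, red for DBA/2J, blue for Gpnmb+ and the marker shape for the pool number. Levels span from under 0.1 to above 40 RPKM, with Tnfsf10 the highest ligand and Tnfrsf1a the highest receptor.

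A single member differed between the genotypes past the threshold, and no member was called lower. Calling a gene took a Benjamini-Hochberg adjusted p over all tested genes that did not exceed 0.05 and at least a 1.5-fold difference in edgeR's quasi-likelihood test, and a positive log2 fold change means more RNA in DBA/2J. The called member was Tnfrsf21, 1 of 39, beside 0.796% of all tested genes called in either direction, 0.502% higher and 0.294% lower. DESeq2 called 2 members, Tnfrsf21 and Tnfrsf9, where it called 4.7% of all genes. At an unadjusted p of at most 0.05 without a fold minimum, 7 members were higher and 2 were lower, beside 8.31% of all genes higher and 7.6% lower. The genotypes did not overlap for 12 members that were higher in every DBA/2J pool and for 5 that were lower, an arrangement found in 17.3% and 17.2% of all genes. The fitted difference was positive in 23 members and negative in 16, with a median log2 fold change of 0.18, where 47.4% of all genes were positive and their median was -0.02. The smallest p that an exact two-sided permutation of 3 and 2 pools can give is 0.2, and p-values for genes are therefore those of the model fitted to the whole table.

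**Figure D2:**
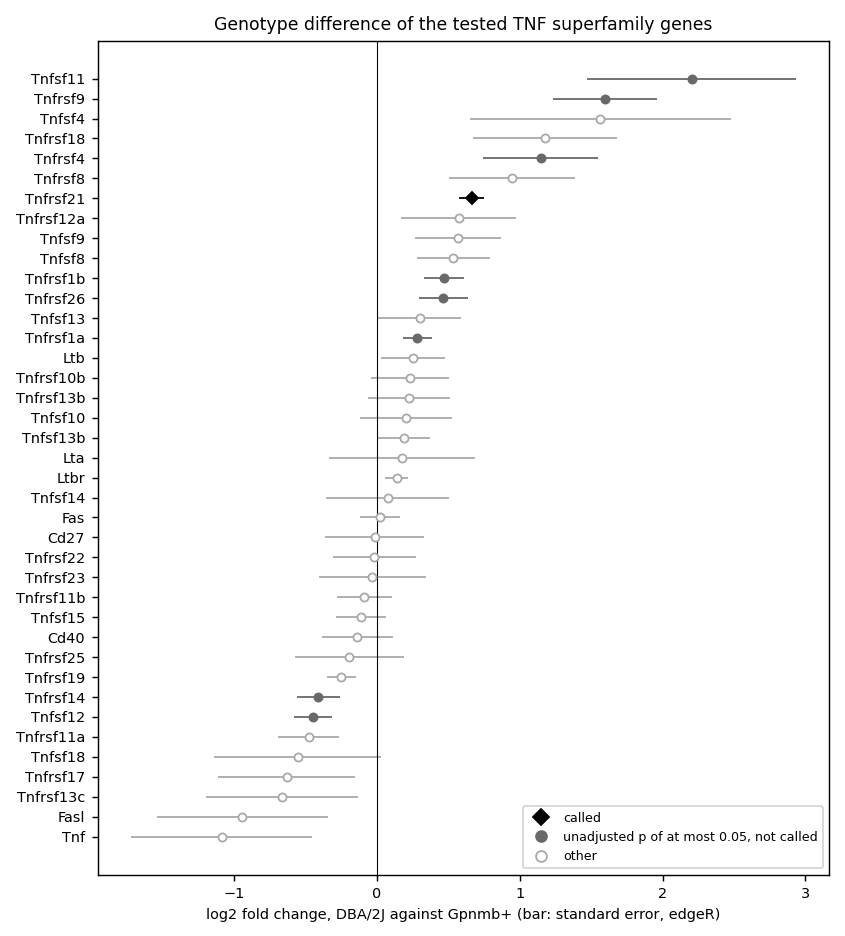
Log2 fold change of DBA/2J against Gpnmb+ for the 39 tested genes, ordered by size, with its standard error from edgeR as a bar. Tnfrsf21 is the single called gene (black diamond) and has one of the shortest bars, 7 genes at an unadjusted p of at most 0.05 lie to the right of 0 and 2 to the left.

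Among the ligands, 10 of the 15 tested had a positive difference, and the median log2 fold change was 0.19. EdgeR and DESeq2 called 0 ligands, beside 0.796% and 4.7% of all genes. At an unadjusted p of at most 0.05, 1 was higher and 1 was lower, beside 8.31% and 7.6% of all genes. Tnfsf10, which encodes TRAIL, the ligand of the death receptor Tnfrsf10b, was the most abundant. Its counts were 4658, 8433 and 4374 in DBA/2J pools 1 to 3, against 5116 and 6339 in Gpnmb+ pools 1 and 2. The genotypes overlapped and the highest and lowest pools were both DBA/2J (0.21 in log2, standard error 0.32, adjusted p = 0.802). Without DBA/2J pool 2 the sign turned, to -0.18.

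Tnfsf12, which encodes TWEAK, lay lower in every DBA/2J pool. Its counts were 597, 704 and 678 in DBA/2J, against 958 and 1074 in Gpnmb+, which is 15.0 ± 1.50 CPM (counts scaled to library size, SD, n = 3) against 20.4 ± 2.18 (SD, n = 2). The difference of -0.44 in log2 (standard error 0.13) had an unadjusted p of 0.0158 and an adjusted p of 0.199, and it was not called. The same-strand readthrough gene Tnfsfm13 covers 52.4% of the exon bases of Tnfsf12 and 65.7% of those of its neighbour Tnfsf13, so the reads of these genes are hard to divide. Tnfsf13, or APRIL, a survival ligand of plasma cells, had 142, 150 and 143 counts against 176 and 92.

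Tnfsf11, which encodes RANKL, the ligand that drives osteoclast formation and acts in lymphoid tissue, had the largest log2 fold change of any tested member. It was low throughout, at 62, 19 and 18 counts in DBA/2J, against 10 and 6 in Gpnmb+. The genotypes did not overlap, but DBA/2J pool 1 held 3.30 times the CPM of the mean of the other DBA/2J pools. Its log2 fold change was 2.20 (standard error 0.73, unadjusted p = 0.0233, adjusted p = 0.238), and it fell to 1.39 without DBA/2J pool 1. The receptor of RANKL, Tnfrsf11a or RANK, had 425, 325 and 331 counts against 686 and 453 (-0.48, adjusted p = 0.348). The soluble decoy Tnfrsf11b, or osteoprotegerin, was far more abundant than either, with a mean RPKM of 6.18 against 0.228 for Tnfsf11 and 1.25 for Tnfrsf11a. It had 904, 664 and 833 counts in DBA/2J, against 810 and 1107 in Gpnmb+, and the genotypes overlapped.

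Tnf itself had no stable difference. Its counts were 135, 103 and 133 in DBA/2J pools 1 to 3 but 92 and 494 in the Gpnmb+ pools, so that Gpnmb+ pool 2 held 5.57 times the CPM of Gpnmb+ pool 1. The DBA/2J pools lay close together, and between the 2 control pools. A difference of -1.08 in log2 (standard error 0.63, adjusted p = 0.462) became -1.84 with an adjusted p of 0.0381 without Gpnmb+ pool 1, and 0.63 with an adjusted p of 0.492 without Gpnmb+ pool 2. Tnfsf18, or GITR ligand, followed the same pool, at 42, 37 and 33 counts in DBA/2J, against 24 and 99 in Gpnmb+, and its sign also turned, to 0.84, without Gpnmb+ pool 2. Fasl, the cytotoxic ligand of Fas, had at most 13 counts, again in Gpnmb+ pool 2. The lymphotoxin genes next to Tnf did not show this pattern. Lta had 16, 20 and 9 counts against 11 and 19, and Ltb, whose product joins lymphotoxin alpha on the cell surface, had 235, 175 and 160 against 171 and 189 (0.26, adjusted p = 0.635).

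The other ligands differed by less than their errors allowed to call. Tnfsf8 (CD30 ligand) had 114, 94 and 145 counts in DBA/2J, against 86 and 97 in Gpnmb+, and Tnfsf9 (4-1BB ligand) had 63, 40 and 47 against 38 in each Gpnmb+ pool. Scaled to library size, both lay higher in every DBA/2J pool, by 0.54 and 0.57 in log2, with adjusted p-values of 0.373 and 0.415. Tnfsf4 (OX40 ligand) reached 23 counts in DBA/2J pool 1 and stayed at 9 or fewer elsewhere, so its log2 fold change of 1.57 carried a standard error of 0.91 and ran from 0.96 without Gpnmb+ pool 2 to 2.66 without Gpnmb+ pool 1. Without DBA/2J pool 1 it lay under the count minimum. Tnfsf13b (BAFF, the B cell survival factor), Tnfsf14 (LIGHT) and Tnfsf15 (TL1A) had log2 fold changes of 0.19, 0.08 and -0.11, and each overlapped between the genotypes.

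**Figure D3:**
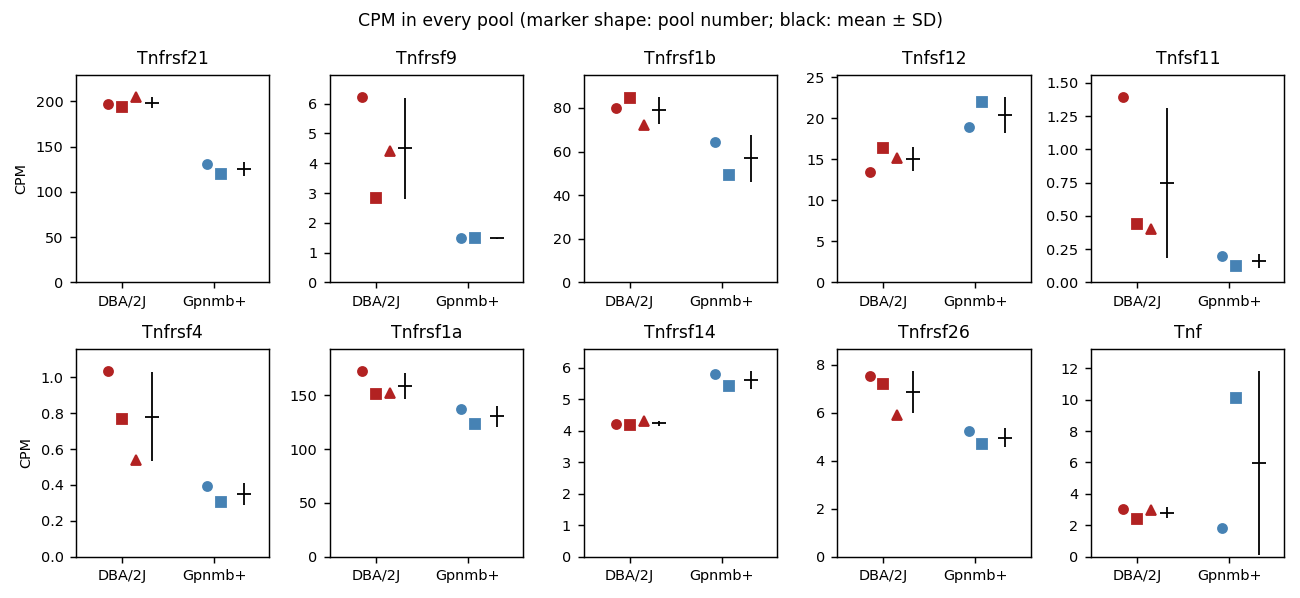
CPM in every pool for the 9 members at an unadjusted p of at most 0.05, in order of p, and for Tnf, with pools as points and the mean ± SD of each genotype in black. Pools of a genotype lie close together for Tnfrsf21, spread widely for Tnfrsf9 and Tnfsf11 in DBA/2J, and for Tnf 1 Gpnmb+ pool stands far above the other 4 pools.

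The death domain receptors included the called gene and the most abundant member of the family. Of 5 tested, 4 had a positive difference, with a median log2 fold change of 0.23. Tnfrsf21 (death receptor 6, ENSMUSG00000023915, chromosome 17 from 43327349 to 43400081) is known for roles in axon pruning and in restraining lymphocyte activation. Its counts were 8773, 8306 and 9139 in DBA/2J pools 1 to 3, against 6629 and 5870 in Gpnmb+ pools 1 and 2. Every DBA/2J pool stood above both controls, at 198.6 ± 5.79 CPM (SD, n = 3) against 125 ± 7.53 (SD, n = 2). The gap between the means is many times the SD inside either genotype. On the log2 scale the difference was 0.66 with a standard error of 0.08 (adjusted p = 0.0392 in edgeR), a fold of 1.58 that lies just inside the minimum of 1.5. The size hardly moved when any pool was left out, from 0.60 to 0.73, but the adjusted p then ran from 0.0663 to 0.182, so in edgeR the call needs all 5 pools. With the replicate number as a block it was also lost, at a log2 fold change of 0.64 and an adjusted p of 0.0562. Marker lists of cell types also differed between the genotypes, some higher and some lower in DBA/2J. All 5 markers of the nonpigmented ciliary epithelium were higher in DBA/2J, 2 of them called, and summed to 697 to 914 CPM there against 157 to 265 in Gpnmb+, while all 6 Schwann cell markers were lower, 2 of them called, and summed to 224 to 293 against 371 to 439. Skeletal muscle markers were higher in 6 of 6 genes (median log2 fold change 1.16, 0 called by edgeR and 1 by DESeq2). The summed CPM of the muscle markers overlapped, at 140, 212 and 387 in DBA/2J pools 1 to 3 against 141 and 84.1 in Gpnmb+. Trabecular meshwork markers were mixed, with 4 of 5 lower and 1 higher (median -0.82, 0 called by edgeR and 3 by DESeq2). Their summed CPM was higher in every DBA/2J pool, at 3998 to 4952 against 2508 and 3196 in Gpnmb+. Over all genes, edgeR called 0.796% and DESeq2 4.7%. The part of these cell types in the difference of Tnfrsf21 was not tested.

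Tnfrsf1a, the main TNF receptor and expressed by nearly all cells, had 7674, 6500 and 6785 counts in DBA/2J, against 6968 and 6042 in Gpnmb+. On CPM the genotypes did not overlap, at 158.7 ± 12.0 (SD, n = 3) against 130 ± 9.77 (SD, n = 2). The difference was small and not called (0.28, standard error 0.10, unadjusted p = 0.0306, adjusted p = 0.262). Fas, which triggers death on binding Fasl, had 560, 491 and 480 counts against 629 and 511, a log2 fold change of 0.02. Tnfrsf10b, the TRAIL death receptor of the mouse, ranged from 291 to 566 counts, both in DBA/2J, and Tnfrsf25, the receptor of Tnfsf15, had 19 or fewer in every pool.

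The TRAF-binding receptors moved both ways, with 8 of 15 higher, 7 lower, 0 called by edgeR and a median log2 fold change of 0.14. Tnfrsf1b, the second TNF receptor, which responds mainly to membrane-bound TNF and is prominent on leukocytes and endothelium, had 3558, 3626 and 3226 counts in DBA/2J, against 3276 and 2410 in Gpnmb+. Every DBA/2J pool was higher on CPM, at 78.9 ± 6.15 (SD, n = 3) against 56.9 ± 10.8 (SD, n = 2). The log2 fold change of 0.47 (standard error 0.14) had an unadjusted p of 0.0147 and an adjusted p of 0.192. Ltbr, the receptor of lymphotoxin and LIGHT that organises lymphoid tissue, was nearly level at 2549, 2289 and 2428 counts against 2483 and 2488 (0.14, adjusted p = 0.448). Both TNF receptors and Ltbr thus lay above the controls in every DBA/2J pool, by 0.14 to 0.47 in log2, without a call. Macrophage markers were higher in 7 of 8 genes, with a median log2 fold change of 0.31, and summed to 728 to 1002 CPM in DBA/2J against 674 and 807 in Gpnmb+. Endothelial markers were higher in 4 of 7. Their part in these receptors was not tested.

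Tnfrsf12a, the receptor of TWEAK that is induced on injury, had 1153, 427 and 765 counts in DBA/2J, against 492 and 688 in Gpnmb+. It was highest in DBA/2J pool 1 and lowest in Gpnmb+ pool 1 on CPM, and the genotypes overlapped (0.57, standard error 0.40, adjusted p = 0.543). All of its exon bases lie opposite Hcfc1r1 in the annotation, and because the strand used in counting is not given in the sources used here, its reads and those of Hcfc1r1 cannot be told apart.

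Tnfrsf9, or 4-1BB, a co-stimulatory receptor of activated T and NK cells, had the clearest difference that missed the threshold. Its counts were 277, 122 and 197 in DBA/2J pools 1 to 3, against 75 and 73 in Gpnmb+, where the controls were nearly identical. In CPM this was 4.50 ± 1.70 (SD, n = 3) against 1.49 ± 0.0101 (SD, n = 2), a fold of 3.02. The log2 fold change of 1.60 (standard error 0.36, unadjusted p = 0.0043) had an adjusted p of 0.115 in edgeR and 0.0019 in DESeq2. It ran from 1.29 without DBA/2J pool 1 to 1.84 without DBA/2J pool 2.

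Of the other receptors that act in lymphocyte co-stimulation, some had positive and some negative differences. EdgeR and DESeq2 called 0 of them, beside 0.796% and 4.7% of all genes. Tnfrsf4 (OX40) had 46, 33 and 24 counts in DBA/2J, against 20 and 15 in Gpnmb+, with no overlap (1.15, standard error 0.40, unadjusted p = 0.0286, adjusted p = 0.256). Tnfrsf18 (GITR) had 181, 90 and 85 counts against 84 and 35 (1.18, standard error 0.50, adjusted p = 0.333). Tnfrsf8 (CD30) had 22, 29 and 23 counts against 20 and 9 (0.95, standard error 0.44, adjusted p = 0.367). These 3 were picked out after their values had been seen, and each lay higher in every DBA/2J pool on CPM. Leaving out a pool moved the log2 fold change from 0.70 to 1.91 in Tnfrsf18 and from 0.51 to 1.60 in Tnfrsf8, in both with the lower value without Gpnmb+ pool 2 and the higher without Gpnmb+ pool 1. An lncRNA on the opposite strand covers 35.9% of the exon bases of Tnfrsf18. Cd27, a further T cell receptor of the family, had 21, 35 and 29 counts against 36 and 29, and the differences of Tnfrsf14 (-0.41), Tnfrsf25 (-0.19) and Cd40 (-0.14) were negative. T and NK cell markers were higher in 5 of 7 genes with 0 called and a median of 0.33, and summed to 26.4 to 42.8 CPM in DBA/2J against 20.6 and 32.2 in Gpnmb+. Their part in the differences of these receptors was not tested.

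The receptors of the B cell lineage had no called difference. Tnfrsf13c (BAFF receptor) had 11, 5 and 14 counts in DBA/2J, against 23 and 13 in Gpnmb+, and Tnfrsf17 (BCMA, a receptor of plasma cells) had 7, 14 and 7 against 17 and 16. Tnfrsf13b (TACI) was more abundant at 220 to 392 counts, and its genotypes overlapped, as did those of Cd40, the receptor that activates B cells and macrophages, at 142, 101 and 107 against 170 and 121. B and plasma cell markers had negative differences in 6 of 6 tested genes, with a median log2 fold change of -1.09 and 0 called by edgeR. In 5 of them the DBA/2J pools lay lower without overlap, beside 17.2% of all genes. At an unadjusted p of at most 0.05, 5 were lower, beside 7.6% of all genes. DESeq2 called 1, where it called 4.7% of all genes. The summed CPM of these markers was 6.38 to 14.0 in DBA/2J and 13.7 and 16.3 in Gpnmb+. Their part in the low counts of Tnfrsf13c and Tnfrsf17 was not tested.

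Tnfrsf14, or HVEM, which takes part in both stimulating and inhibiting lymphocytes and is found on epithelia, was lower in every DBA/2J pool. Its counts of 187, 179 and 193 against 295 and 265 gave 4.23 ± 0.0820 CPM (SD, n = 3) and 5.62 ± 0.280 (SD, n = 2). The log2 fold change was -0.41 (standard error 0.15, unadjusted p = 0.0337, adjusted p = 0.270). Tnfrsf19 (TROY), known from neural and epithelial progenitors, had 1272, 1381 and 1240 counts in DBA/2J, against 1834 and 1660 in Gpnmb+ and did not overlap either (-0.25, adjusted p = 0.315). Relatives of the family outside the symbol rule, Eda, Edar, Eda2r, Ngfr and Relt, had log2 fold changes from -0.53 to -0.02. Each of these 5 genes overlapped between the genotypes, 0 reached an unadjusted p of 0.05 or were called by DESeq2, and the smallest adjusted p was 0.499.

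The decoy receptors Tnfrsf22, Tnfrsf23 and Tnfrsf26 lie side by side on chromosome 7, and the mouse uses the products of Tnfrsf22 and Tnfrsf23 as decoys for TRAIL. Tnfrsf26 had 335, 309 and 263 counts in DBA/2J, against 266 and 230 in Gpnmb+, with no overlap on CPM (0.47, standard error 0.17, unadjusted p = 0.0358, adjusted p = 0.277). Its neighbours overlapped. Tnfrsf22 had 614, 359 and 382 counts against 633 and 403, and Tnfrsf23 had 1474, 743 and 612 against 1236 and 945, with log2 fold changes of -0.02 and -0.03. These are related copies and only uniquely aligned reads were counted, so their counts are uncertain.

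Neighbouring members held differences of the same sign in some groups and of both signs in others. Within gaps of at most 1 Mb, 23 members lay in 9 groups. Tnfrsf4 and Tnfrsf18, at 156098293 to 156113352 on chromosome 4, had log2 fold changes of 1.15 and 1.18, and Tnfrsf1b and Tnfrsf8, at 144938938 to 145041734 on the same chromosome, had 0.47 and 0.95. Tnfsf4, Tnfsf18 and Fasl on chromosome 1 had 1.57, -0.55 and -0.94, and Ltb, Tnf and Lta on chromosome 17 had 0.26, -1.08 and 0.18.

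Ligand and receptor had differences of the same sign in some of the pairs listed here and of opposite sign in others. For 4-1BB, Tnfsf9 had a log2 fold change of 0.57 and Tnfrsf9 of 1.60. For OX40 the values were 1.57 for Tnfsf4 and 1.15 for Tnfrsf4, and for CD30 they were 0.54 for Tnfsf8 and 0.95 for Tnfrsf8. The TWEAK pair had -0.44 for Tnfsf12 and 0.57 for Tnfrsf12a, and the GITR pair had -0.55 for Tnfsf18 and 1.18 for Tnfrsf18. The difference within a pair was not tested.

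The pools of a genotype were not alike in these genes. DBA/2J pool 1 was the highest of the 5 pools in 18 of 39 members (46.2%), where it was the highest in 21.1% of all tested genes. Gpnmb+ pool 2 was the highest in 5 members (12.8%) against 26.9% of all genes. For 24 members (61.5%) the range inside a genotype was larger than the difference between genotypes, beside 74.4% of all genes. Without DBA/2J pool 1, 20 of 38 tested members were positive with a median log2 fold change of 0.06, against 23 of 39 and 0.18 with all pools. Without Gpnmb+ pool 2, 3 of 38 members (7.89%) had an unadjusted p of at most 0.05, beside 11.5% of all genes, against 9 of 39 (23.1%) beside 15.9% with all pools.

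**Figure D4:**
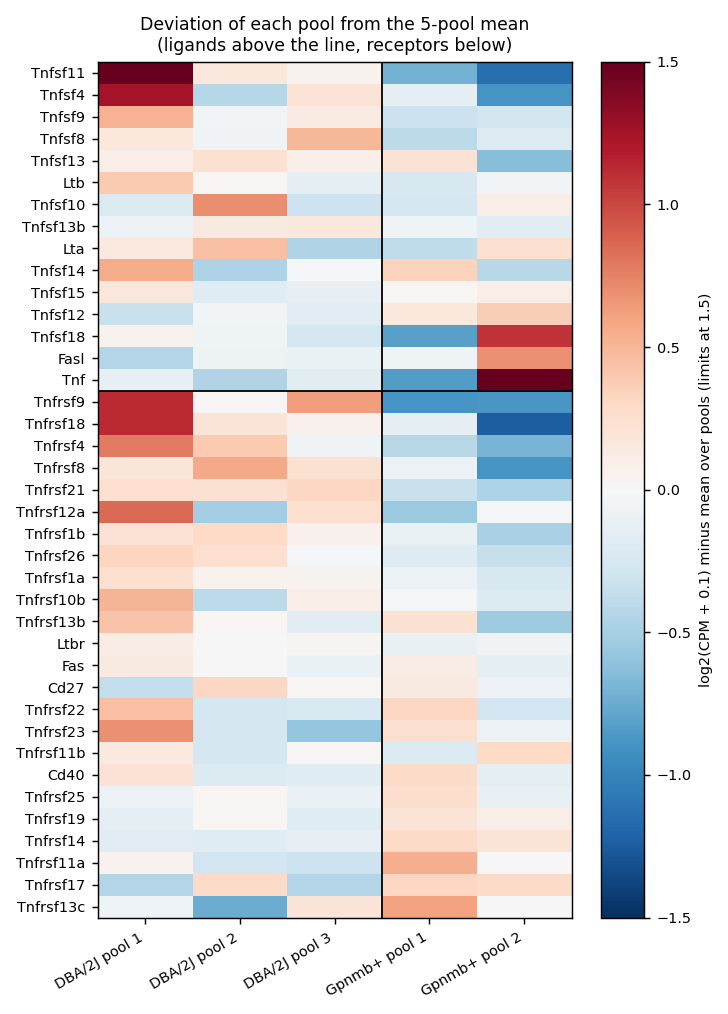
Deviation of each pool from the mean over the 5 pools, in log2(CPM + 0.1), for the 39 tested genes, with ligands above the black line, receptors below it and red for higher. DBA/2J pool 1 is the highest pool in 18 genes, and Gpnmb+ pool 2 stands out in Tnf and Tnfsf18.

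Downstream of the receptors, no gene of the pathway lists was called by edgeR, which called few genes anywhere, and nearly all target genes had a positive difference. Over 5 lists of relatives, adaptors, NF-kB signalling, target genes and shedding proteases, 71 of 72 genes were tested. EdgeR called 0 of these, beside 0.796% of all genes. At an unadjusted p of at most 0.05, 9 were higher and 0 lower, beside 8.31% and 7.6% of all genes. DESeq2 called 4, all of them in the target list, where it called 4.7% of all genes. Of the 17 adaptors and death effectors, 7 were higher and 10 lower, with log2 fold changes from -0.22 to 0.33. The 23 NF-kB signalling genes had a median of 0.08. Among them Nfkbie, an inhibitor that NF-kB itself induces, had 631, 605 and 607 counts in DBA/2J, against 517 and 449 in Gpnmb+ (0.53, standard error 0.12, adjusted p = 0.111). Adam17, the protease that releases TNF and its receptors, had a log2 fold change of 0.18 (adjusted p = 0.340), and its 4 list companions lay between -0.09 and 0.23.

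Of 21 tested target genes of TNF and NF-kB, 20 had a positive difference, with a median log2 fold change of 0.75 and 0 called by edgeR. Over all genes, 47.4% were positive. The list was chosen with earlier results of these data known. This lean in direction, the calls and the share at an unadjusted p are therefore a description and not a test. At an unadjusted p of at most 0.05, 8 were higher (38.1%), beside 8.31% of all genes. Vcam1, an endothelial adhesion molecule for leukocytes, had 13435, 12482 and 10443 counts in DBA/2J, against 7894 and 7622 in Gpnmb+ (0.82, standard error 0.13). Its adjusted p was 0.0581 in edgeR and 1.95e-06 in DESeq2, which called it. Sele, or E-selectin, had 548, 350 and 519 counts against 274 and 232 (1.08, adjusted p = 0.0947 in edgeR and 0.0006 in DESeq2, which called it). Neither Vcam1 nor Sele overlapped between the genotypes. Csf1, the macrophage growth factor, had 4299, 4013 and 3992 against 3982 and 3490 (0.32, adjusted p = 0.165).

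Elsewhere in this list 1 pool often stood far above the others. Il6 had 458, 15 and 36 counts in DBA/2J against 11 and 8, and Ptx3, a soluble pattern recognition protein, had 1112, 335 and 369 against 180 and 82 (2.39, standard error 0.66, adjusted p = 0.167). DBA/2J pool 1 was the highest pool in 15 of the 21 genes. Without it, 16 of 21 were positive and the median was 0.29, where 46.3% of all genes were positive.

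**Figure D5:**
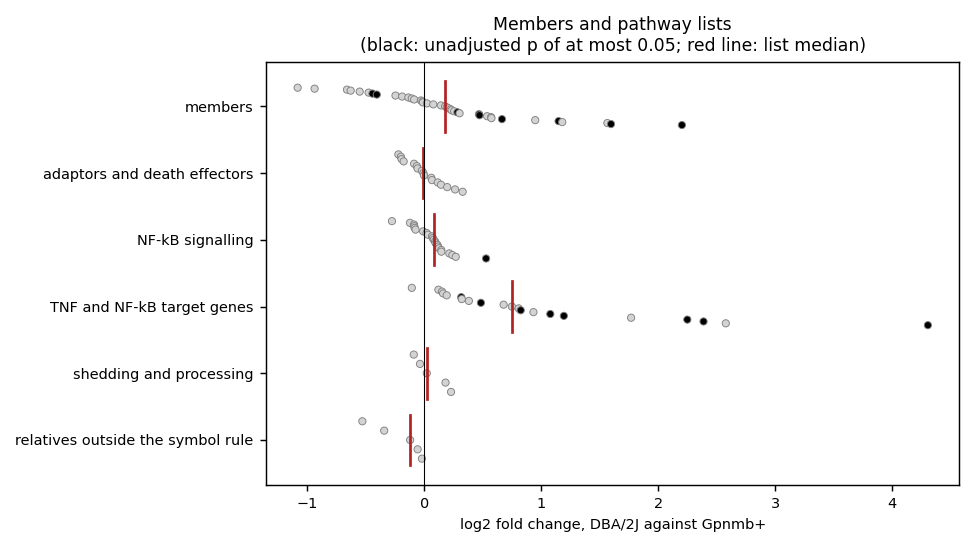
Log2 fold change of DBA/2J against Gpnmb+ for the 39 tested members and for each pathway list, with black for an unadjusted p of at most 0.05 and a red line at the median. Adaptors and NF-kB signalling genes gather around 0, while 20 of 21 target genes lie to the right of 0 with a median of 0.75. The lists were chosen with earlier results of these data known.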

How the data were processed

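The authors enriched mRNA, sequenced paired 100 bp reads, trimmed with fastp and aligned to GRCm39 with STAR. What they deposited is a table of raw counts, the uniquely aligned reads on each gene, without normalization. Symbols and positions came from GENCODE release M39, which held 56323 of the 56941 identifiers. In R 4.3.3, genes reaching 10 counts in any 1 pool were kept, scaled by TMM and tested with edgeR 4.0.16 (quasi-likelihood, genotype only). The script was tested on simulated data. CPM and RPKM (union exon length) describe levels. P-values measure the spread between pools, which already average over mice. Members and lists were chosen with earlier results of these data known. Values per pool are given for members called or at an unadjusted p of at most 0.05, and for the 3 ligands and 5 receptors of highest RPKM; others were named for their role or for standing apart after values were seen. Alternatives were DESeq2 1.42.0, its size factors, limma-voom 3.58.1, filterByExpr, no count minimum, a replicate block, unadjusted p-values and each pool left out. RefSeq protein sequences were not used here.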

Additional observations from a re-analysis of the deposited data

How the results depend on the processing

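The count of called members, 1 in edgeR (1 higher and 0 lower), was 2 with DESeq2 (both higher), 4 with unadjusted p-values and the fold minimum (all higher), 0 with the replicate block and 0 to 1 with a pool left out. With a pool left out, 0 to 0 members were called higher and 0 to 1 lower, the 1 being Tnf without Gpnmb+ pool 1. Over all genes, 157 calls became 927 with DESeq2, 360 without the count minimum, 1710 with unadjusted p-values and 1 to 217 with a pool left out. Of the signalling and target genes, 0 calls became 4 with DESeq2, 1 without the count minimum, 3 with the replicate block and 6 with unadjusted p-values. The cause of these moves was not tested. Tnfrsf21 kept its direction under every alternative run, with an adjusted p of 0.0562 under the replicate block. The replicate numbers are shared by pools 1 and 2, and nothing pairs them: their deviations correlated at r = 0.279 and 0.254, over genes, which 2 pairs cannot settle.

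Of 425 member values under alternatives, 389 kept their direction and side of the threshold, 6 were weaker, 2 stronger and 28 reversed, in 15 members. Without the count minimum Cd27 became 0.00654 and Tnfrsf22 0.00360, and with the replicate block Tnfrsf22 became 0.0852 and Tnfrsf23 0.146. With each pool left out in turn, log2 fold changes ran from -0.21 to 0.17 in Cd27, -0.34 to 0.10 in Cd40, -0.10 to 0.15 in Fas, -0.18 to 0.65 in Lta, -1.84 to 0.63 in Tnf, -0.0119 to 0.43 in Tnfrsf10b, -0.31 to 0.19 in Tnfrsf11b, -0.11 to 0.66 in Tnfrsf13b, -0.29 to 0.32 in Tnfrsf22, -0.49 to 0.21 in Tnfrsf23, -0.41 to 0.0790 in Tnfrsf25, -0.18 to 0.40 in Tnfsf10, -0.0723 to 0.81 in Tnfsf13, -0.28 to 0.56 in Tnfsf14 and -1.25 to 0.84 in Tnfsf18. Without a Gpnmb+ pool, the remaining pool was assumed to vary like the DBA/2J pools. Tnfsf4, Fasl, Lta, Tnfrsf13c, Tnfrsf17 and Tnfrsf25 had at most 23 counts in any pool, and no difference was detectable in them at this depth and spread.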
